A study of Rattus norvegicus with 12 samples.

Results

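Nedd4 and its closest relatives are ubiquitin ligases of the HECT class, measured here in rat testes at embryonic day 16. The members were all probe sets that the array annotation assigns to Nedd4, Nedd4l, Itch, Wwp1 or Wwp2 as the single gene. A probe set is the group of short probes that reports 1 stretch of transcript. There were 11 member probe sets among the 31042 that are not array controls, and 4 of the 5 genes had any, of 14217 genes on the array. They were 6 for Nedd4, 1 for Nedd4l, 2 for Wwp1, 2 for Wwp2 and 0 for Itch, so Itch has no value here. A filter that left out the dimmest 30% of probe sets (mean signal below 14.8) was passed by 10 of the 11, and the exception was Wwp1 1397761_at. The genes were chosen by measured values: a Nedd4 probe set, called A below (its array name is given with the processing), had the lowest difference between lineages of all probe sets in F1 and again in F2. The F1 and F2 differences of the members are therefore described without a test. Tests are given for F3 and for the control groups, although the F1 and F2 control arrays had a part in the choice.

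The study followed 2 lineages over 3 generations on 12 Affymetrix rat arrays, 2 per group. Founder females of the vinclozolin lineage received 100 mg/kg/day of vinclozolin, a fungicide that blocks the androgen receptor, by intraperitoneal injection on pregnancy days 8 to 14. Those of the control lineage received sesame oil with DMSO on the same days. The F1 vinclozolin embryos were exposed to the drug in the womb and the F1 control embryos to the vehicle. The F2 and F3 groups of each lineage descended from such litters through matings, with no further dosing in the protocols. The labels name no strain. For F2 and F3 vinclozolin embryos the protocol text speaks of crosses between different control lines, so lineage is taken from the sample titles. RNA of about 10 testes was pooled for each array, so the p-values measure the spread between pools, which may be technical.

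HECT ligases take ubiquitin from an E2 enzyme onto a cysteine of their own before they pass it to a substrate. The Nedd4 family joins a C2 domain, which binds membranes, to WW domains, which bind PY motifs of substrates and adaptors, and to the HECT domain at the end of the protein. Its members send membrane receptors, channels and signalling proteins to the endosome or the proteasome, and Nedd4 in the mouse is known for its part in insulin-like growth factor signalling and fetal growth.

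Testis markers were present on all arrays. Amh, the Sertoli cell hormone, gave signals of 2397 to 3418, and Cyp17a1, a Leydig cell steroidogenic enzyme, 3889 to 4698. Markers of mesonephros and kidney (Pax2, Pax8, Lhx1) gave at most 51.9 on any array, and those of skeletal muscle (Myog, Actn3, Ckm, Tnnt3) at most 46.6. The mesonephros sum was 28.9 to 35 on F1 vinclozolin against 60.5 to 74.2 on F1 control arrays, and overlapped between lineages in F2 and F3. Summed over Hbb, Alas2 and Ahsp, the erythroid signal was 6140 to 7885 on F1 vinclozolin arrays and 4810 to 4986 on F1 control arrays, 6056 to 6132 on F2 vinclozolin and 5370 to 5462 on F2 control arrays, and 7462 to 8133 on F3 vinclozolin and 4919 to 5165 on F3 control arrays. The Leydig sum over 5 genes was also higher on vinclozolin arrays, at 12008 to 14312 on F1 vinclozolin against 11392 to 11547 on F1 control arrays, 13214 to 14083 on F2 vinclozolin against 11182 to 11667 on F2 control arrays, and 12713 to 13664 on F3 vinclozolin against 10971 to 11343 on F3 control arrays. The Sertoli sum over 4 genes was 3387 to 3741 on F1 vinclozolin against 4041 to 4121 on F1 control arrays, 4359 to 4397 on F2 vinclozolin against 3904 to 4238 on F2 control arrays, and 3317 to 3615 on F3 vinclozolin against 3907 to 4152 on F3 control arrays, lower in F1 and F3 and higher in F2. The stroma sum (Pdgfra, Dcn and Acta2) was 2362 to 2544 on F2 vinclozolin against 2601 to 2630 on F2 control arrays. It overlapped between lineages in F1 and F3. These sums add linear signals, so the brightest genes weigh most, and single genes could go the other way. In F1, Star went against the Leydig sum, with means of 712 on vinclozolin and 839 on control arrays. Dhh (236 against 219) and Clu (130 against 115) went against the Sertoli sum there. Among the stroma genes in F1, Pdgfra was higher on vinclozolin arrays (1574.4 against 1174.5). Dcn (780 against 899) and Acta2 (289 against 475) were lower. The part of cell makeup in the Nedd4 differences was not tested. The 4 germ cell markers looked up matched no probe set by symbol in the annotation used and have no value here. The 5' to 3' signal ratio of beta-actin, a sign of RNA integrity and labelling length, was 0.149 to 0.395 on the 6 vinclozolin arrays and 0.423 to 0.471 on the 6 control arrays. In pooled tissue, fewer cells of a type and less RNA per cell cannot be told apart.

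The sequence shown is the stretch before the annotated start of Nedd4, the gene that the results turn on, since vinclozolin acts on the androgen receptor, a DNA-binding factor. It is taken from RefSeq on build GRCr8, chr8:82264545-82264794, plus strand, 250 bases, and capitals mark the 1 match to GGGCGG, the GC box, found on either strand. The array's own probe sequences were not used here, so the place of each probe set along the Nedd4 transcript is not given.
Nedd4: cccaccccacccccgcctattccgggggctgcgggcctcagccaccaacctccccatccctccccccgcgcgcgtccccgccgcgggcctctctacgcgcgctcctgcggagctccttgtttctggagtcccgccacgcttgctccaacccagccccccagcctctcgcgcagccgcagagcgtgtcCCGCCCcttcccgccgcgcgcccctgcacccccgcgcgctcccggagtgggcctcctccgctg
The stretch holds 30 CG dinucleotides, against a median of 5 over the 33469 rat promoters of the same length, and 76.8% of its bases are G or C. A GC box occurs in 30.5% of those promoters. AGAACA, the half-site of the androgen response element, was searched on both strands and is in 17.5% of them. It had 0 matches in the stretches of Nedd4, Nedd4l, Itch and Wwp2. Bases outside these stretches were not searched, and whether the androgen receptor acts on these genes was not tested. Among these relatives, Nedd4l had 6 matches to the GC box and 34 CG dinucleotides, Wwp2 had 0 and 18, and Itch had 0 and 8.

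Nedd4 was represented by probe sets that differed widely from each other on the same arrays. Probe set A gave 128.1 and 132.8 on the F1 vinclozolin arrays, against 1360 and 1538 on the F1 control arrays. It gave 218.7 and 171.6 on the F2 vinclozolin arrays, against 1455 and 1458 on the F2 control arrays. On the F3 vinclozolin arrays it gave 628.2 and 518.6, against 1324 and 1162 on the F3 control arrays. Every vinclozolin array was thus below every control array, and the F3 vinclozolin arrays lay between those of the earlier vinclozolin generations and the controls. As log2(signal + 16), the scale of all differences below, vinclozolin minus control was −3.32 ± 0.12 in F1 and −2.81 ± 0.12 in F2 (estimate ± SE, n = 2 arrays per group, as throughout). These are the values that chose the gene, ranking 1 from the bottom of 21729 probe sets in both generations.

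The probe set 1383899_at had the next lowest differences of the gene. It gave 424.4 and 320.9 on F1 vinclozolin arrays, against 1456 and 1456 on F1 control arrays, and 781.1 and 558.5 on F2 vinclozolin arrays, against 1469 and 1582 on F2 control arrays. The F3 vinclozolin arrays gave 1135 and 947.5, against 1484 and 1355 on the F3 control arrays. Here too no vinclozolin array reached a control array, and the differences were −1.93 ± 0.15 in F1, −1.19 ± 0.15 in F2 and −0.44 ± 0.15 in F3.

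A further pair of probe sets had smaller differences. For 1386263_at the F1 vinclozolin arrays gave 395.6 and 236.7, against 577.7 and 727.6 on F1 control arrays, the F2 vinclozolin arrays 553.0 and 426.4, against 711.4 and 820.7 on F2 control arrays, and the F3 vinclozolin arrays 660.4 and 580.7, against 670.4 and 608.9 on F3 control arrays. For 1384326_at the F1 vinclozolin arrays gave 16.4 and 20.7, against 51.4 and 63.7 on F1 control arrays, the F2 vinclozolin arrays 36.1 and 24.3, against 59.2 and 53.0 on F2 control arrays, and the F3 vinclozolin arrays 91.5 and 45.4, against 61.3 and 56.4 on F3 control arrays. Both probe sets separated the lineages in F1 and in F2, and in F3 their arrays overlapped. Their differences were −1.04 ± 0.18 and −1.09 ± 0.22 in F1 and −0.64 ± 0.18 and −0.65 ± 0.22 in F2.

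The 2 remaining Nedd4 probe sets, with the highest signals of the gene, differed least between lineages. For 1371314_at the F1 vinclozolin arrays gave 2213 and 1963, against 2426 and 2821 on F1 control arrays, the F2 vinclozolin arrays 2127 and 2002, against 2692 and 2613 on F2 control arrays, and the F3 vinclozolin arrays 2753 and 2586, against 2749 and 2712 on F3 control arrays. The lineages were apart in F1 and F2 and overlapped in F3, with differences of −0.33 ± 0.09 in F1 and −0.36 ± 0.09 in F2. For 1375119_at, the brightest, the F1 vinclozolin arrays gave 3712 and 4239, against 3599 and 3847 on F1 control arrays, the F2 vinclozolin arrays 3828 and 3762, against 4126 and 3976 on F2 control arrays, and the F3 vinclozolin arrays 3639 and 3736, against 3595 and 3694 on F3 control arrays. That probe set overlapped between lineages in F1 and F3, with differences of 0.09 ± 0.08 in F1 and −0.09 ± 0.08 in F2. Under median centring its F2 value was 0.02, and under quantile normalization its F1 value was −0.14. With the beta-actin ratio as a covariate it was −0.455 (SE 0.34) in F1 and −0.499 (SE 0.26) in F2.

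**Figure D1:**
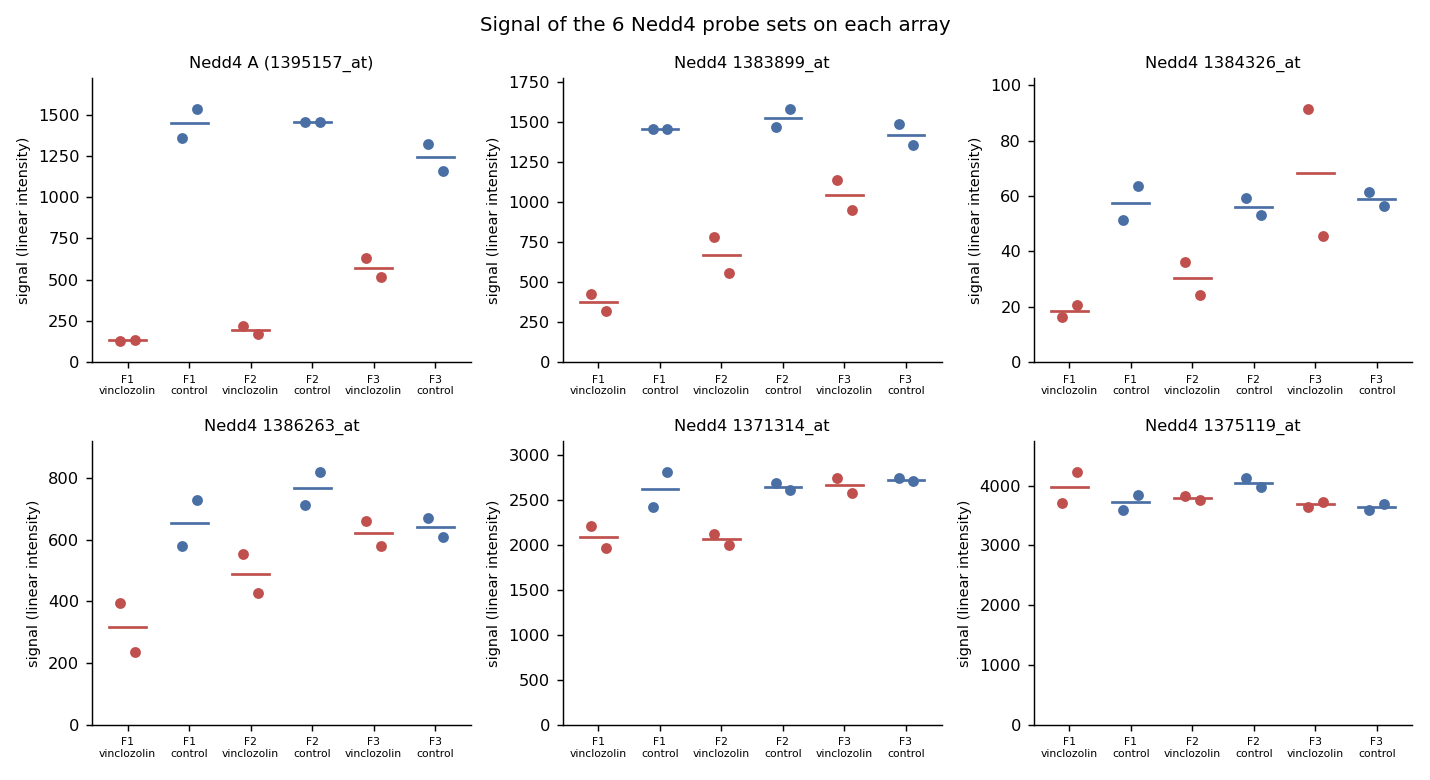
Signal (linear intensity, each vertical axis from 0) of the 6 Nedd4 probe sets on each array, with vinclozolin in red, control in blue and a line at the mean of the 2 arrays of a group. At probe set A the vinclozolin arrays ran from 128.1 to 628.2 and the control arrays from 1162 to 1538, while at 1375119_at both lineages lay between 3595 and 4239.

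F3 embryos were 3 generations on from the dosed females, and their values did not serve to choose the gene. Nedd4 fell at probe set A by 1.10 on the log2 scale (SE 0.12, limma, adjusted p = 2.67e-04 over 21729 probe sets), with a mean signal ratio of 0.461, vinclozolin over control. It ranked 45 from the bottom of all probe sets. No other Nedd4 probe set was called. The value at 1383899_at was −0.44 ± 0.15 (adjusted p = 0.110), or 0.088 ± 0.17 once the beta-actin ratio entered the fit, and the other 4 lay between −0.04 and 0.12 (limma adjusted p between 0.834 and 0.936). Of the 10 members that passed the filter, 1 was called lower and 0 higher in F3, against 3.11% of all tested probe sets called in either direction, 2.06% lower and 1.05% higher. Both F3 vinclozolin arrays lay below both F3 control arrays in 2 of the 10 and above both in 0, against 29.7% and 25.8% of all tested probe sets.

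For comparison, 7 of the 10 tested members met the same threshold as lower in F1 and 4 in F2, beside 13.7% and 9.65% of all tested probe sets (in either direction, 23.1% and 14.3%); nothing is read from these counts, since those contrasts chose the gene. Of the 7 in F1, 5 were Nedd4 probe sets, and all 4 in F2 were. Both vinclozolin arrays lay below both controls in 8 members in F1 and in 8 in F2, beside 30.6% and 30.4% of all tested probe sets. They lay above both in 0 members in F1 and in 1, Wwp2 1384398_at, in F2, beside 27.8% and 27.6%. The median difference over the 10 members was −0.60 in F1, −0.35 in F2 and −0.08 in F3, and over all 21729 tested probe sets it was −0.01 in each of the 3 generations. Over the 3 generations together, 2 of the 10, both of Nedd4 (A and 1383899_at), had all 6 vinclozolin arrays below all 6 control arrays, beside 7.73% of all tested probe sets. Only probe set A was called lower in each generation, beside 0.907% of all.

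**Figure D2:**
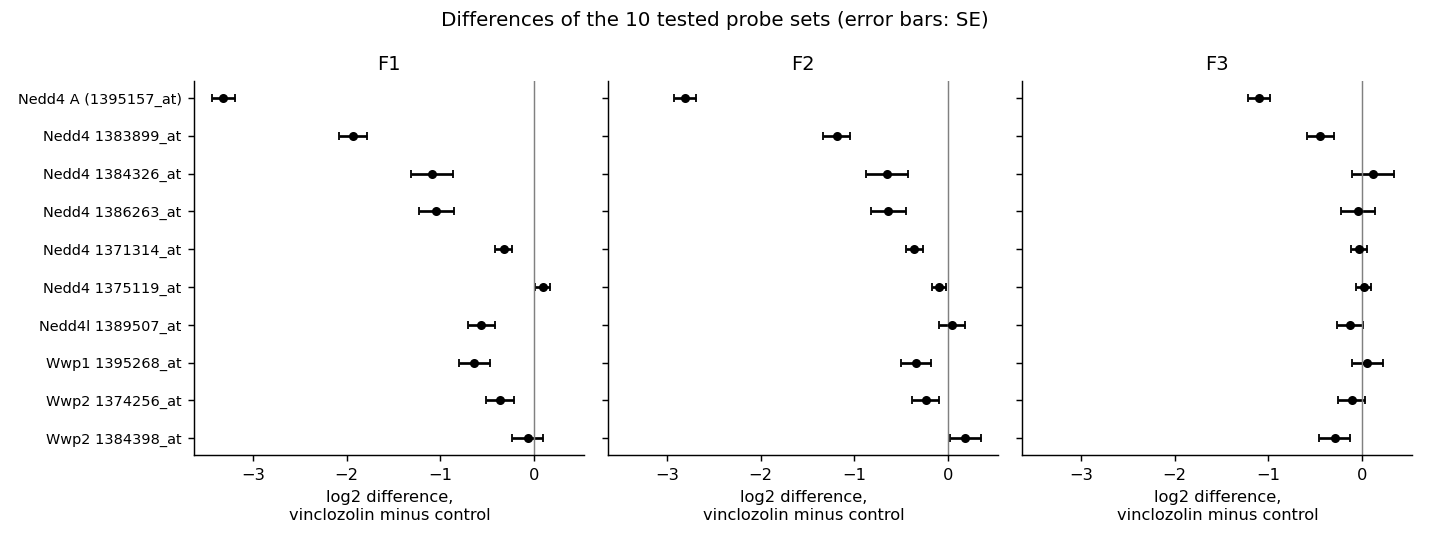
Difference on the log2(signal + 16) scale, vinclozolin minus control, of the 10 tested probe sets in each generation, with bars for the SE of the fit to all 12 arrays. In F1 the 6 Nedd4 probe sets spread from −3.32 to 0.09, and in F3 from −1.10 to 0.12.

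In F1 and F2, the contrasts that chose the gene, A was lowest, then 1383899_at, then 1384326_at and 1386263_at, which lay within their SE of each other, then 1371314_at and 1375119_at. In F3, A and 1383899_at were again lowest, and the other 4 lay between −0.04 and 0.12 in another order, with 1384326_at highest. The gap between the lowest and the highest was 3.41 in F1, 2.72 in F2 and 1.22 in F3. The choice of probe set A as the lowest of all fixed a wide gap in F1 and F2, so only F3 is set beside other genes: among the 11 genes with 6 tested probe sets, Nedd4 included, the median gap in F3 was 0.73 and 0 had a wider one than Nedd4. Over the 12 arrays, the 10 pairs among the 5 probe sets other than 1375119_at had a Pearson r of 0.819 to 0.963, and the 5 pairs with 1375119_at had −0.323 to −0.172. These points share arrays and lineage: among the 6 control arrays alone, r of the same 10 pairs ran from −0.180 to 0.905. The 5 pairs with 1375119_at had r of 0.13 to 0.72 among the control arrays, and −0.85 to −0.49 among the 6 vinclozolin arrays.

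Within an array, the log2 ratio of probe set A to 1375119_at compares 2 probe sets of the same gene in the same RNA. Its mean was −4.77 ± 0.10 on F1 vinclozolin arrays and −1.35 ± 0.06 on F1 control arrays (SD, n = 2 each). It was −4.18 ± 0.21 on F2 vinclozolin arrays and −1.47 ± 0.04 on F2 control arrays, and −2.66 ± 0.22 on F3 vinclozolin arrays and −1.54 ± 0.16 on F3 control arrays. The ratio for 1383899_at was −1.81 ± 0.21 on F3 vinclozolin arrays and −1.35 ± 0.12 on F3 control arrays. The ratios describe how unequally these Nedd4 probe sets differed between lineages.

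Signs of RNA quality differed between the same arrays. By group, the beta-actin ratio averaged 0.171 ± 0.030 on F1 vinclozolin arrays and 0.459 ± 0.003 on F1 control arrays, 0.233 ± 0.020 on F2 vinclozolin arrays and 0.447 ± 0.034 on F2 control arrays, and 0.378 ± 0.025 on F3 vinclozolin arrays and 0.453 ± 0.016 on F3 control arrays (SD, n = 2 each). The same ratio for Gapdh was 0.718 and 0.651 on F1 vinclozolin arrays against 0.978 and 1.022 on F1 control arrays, and 0.800 and 0.721 on F2 vinclozolin arrays against 0.994 and 0.995 on F2 control arrays. In F3 it was 1.023 and 0.970 on vinclozolin arrays against 0.959 and 0.971 on control arrays, so the Gapdh ratio overlapped between lineages in F3 while the beta-actin ratio did not. Nedd4 probe set A had its group means in the same order over the vinclozolin generations, at signals of 130.5 in F1, 195.2 in F2 and 573.4 in F3. With that ratio as a covariate the F3 difference of probe set A was −0.87 ± 0.19 and was not called (limma adjusted p = 0.144), in a fit that called 7 of 21729 probe sets (0.0322%). The part of RNA quality in the Nedd4 differences was not tested beyond this fit. The vinclozolin arrays lay apart from the control arrays in both measures, so no correlation between them is given.

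**Figure D3:**
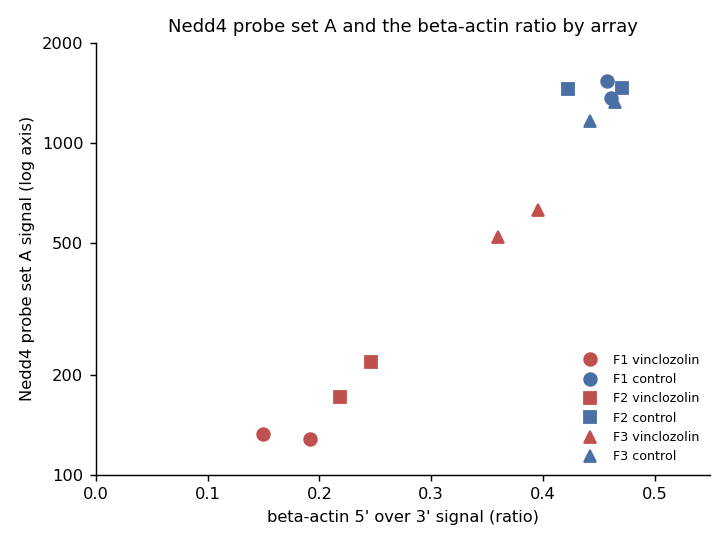
Signal of Nedd4 probe set A (log axis) against the beta-actin 5' over 3' signal ratio, 1 point per array, with vinclozolin in red, control in blue and the generation by shape. The 6 control arrays lie together at ratios of 0.423 to 0.471, and the vinclozolin arrays at 0.149 to 0.395 with lower signals.

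Nedd4l, the relative best known for removing the epithelial sodium channel from the membrane, had 1 probe set, 1389507_at. It gave 75.9 and 87.7 on F1 vinclozolin arrays, against 129.2 and 127.2 on F1 control arrays, 106.9 and 140.4 on F2 vinclozolin arrays, against 130.9 and 107.6 on F2 control arrays, and 123.7 and 110.6 on F3 vinclozolin arrays, against 135.6 and 123.6 on F3 control arrays. The lineages were apart in F1 and overlapped in F2 and F3. The differences were −0.56 ± 0.14 in F1, 0.04 ± 0.14 in F2 and −0.13 ± 0.14 in F3 (limma adjusted p = 0.692 in F3).

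Wwp1, a ligase reported to act on Klf transcription factors and on p63, had a usable and a dim probe set. At 1395268_at the F1 vinclozolin arrays gave 46.8 and 66.8, against 93.8 and 98.6 on F1 control arrays, the F2 vinclozolin arrays 65.8 and 47.4, against 79.7 and 71.3 on F2 control arrays, and the F3 vinclozolin arrays 81.4 and 73.1, against 75.2 and 71.7 on F3 control arrays. The lineages were apart in F1 and F2 and overlapped in F3. The differences were −0.64 ± 0.16 in F1, −0.34 ± 0.16 in F2 and 0.06 ± 0.16 in F3 (limma adjusted p = 0.893 in F3). The dim Wwp1 1397761_at stayed between 2.0 and 11.9 on vinclozolin arrays and between 0.2 and 8.7 on control arrays, too low for a test.

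Wwp2, a ligase reported to mark the pluripotency factor Oct4, had a pair of probe sets that differed in their pattern. At 1374256_at the F1 vinclozolin arrays gave 106.3 and 77.9, against 125.9 and 117.4 on F1 control arrays, the F2 vinclozolin arrays 83.5 and 104.7, against 117.8 and 108.9 on F2 control arrays, and the F3 vinclozolin arrays 100.6 and 112.9, against 121.6 and 111.3 on F3 control arrays. At 1384398_at they gave 88.9 and 69.8 against 81.4 and 85.4 in F1, 83.3 and 97.3 against 78.7 and 76.0 in F2, and 69.4 and 50.0 against 87.4 and 65.8 in F3, vinclozolin against control each time. At both, the lineages overlapped in F3; they were apart at 1374256_at in F1 and F2, with vinclozolin lower, and at 1384398_at in F2 only, with vinclozolin higher. The differences of 1374256_at were −0.36 ± 0.15, −0.24 ± 0.15 and −0.11 ± 0.15 in F1, F2 and F3, and those of 1384398_at −0.07 ± 0.17, 0.18 ± 0.17 and −0.29 ± 0.17. Neither was called in F3 (limma adjusted p = 0.753 and 0.375), and their r over the 12 arrays was 0.0729.

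**Figure D4:**
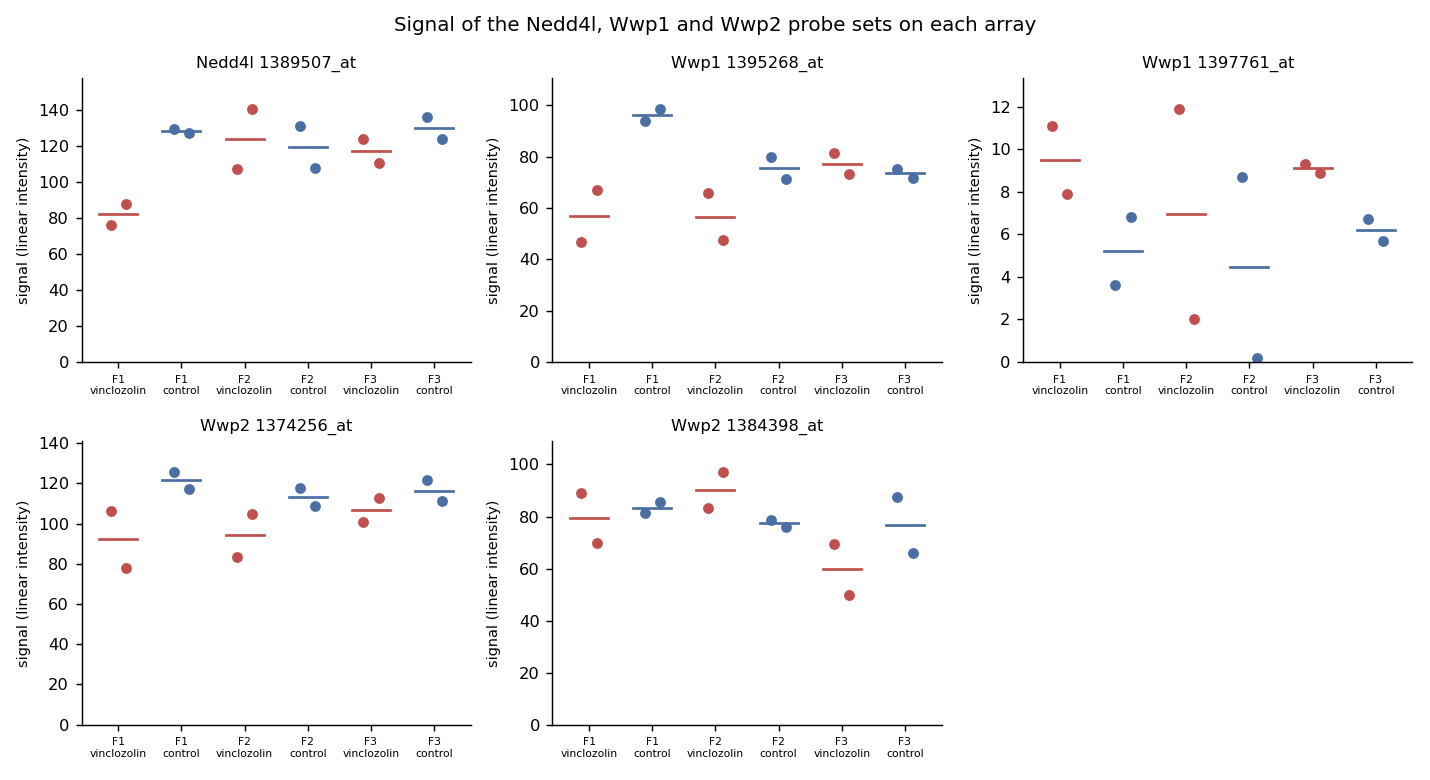
Signal (linear intensity, each vertical axis from 0) of the Nedd4l, Wwp1 and Wwp2 probe sets on each array, with vinclozolin in red, control in blue and a line at the mean of the 2 arrays of a group. Nedd4l and Wwp1 1395268_at lie lower on F1 vinclozolin than on F1 control arrays, and the 4 tested probe sets overlap between lineages in F3.

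The 3 control groups were compared to see how the members varied without vinclozolin ancestry. The F1 and F2 control arrays were part of the contrasts that chose Nedd4, so for Nedd4 the comparison is not independent of that choice. Limma's F test called 0 of the 10 members and 0 of 21729 probe sets (0%). At an unadjusted p under 0.05 there were 0 members and 517 of all probe sets. Nedd4 probe set A differed by 0.01 between F2 and F1 controls and by −0.22 between F3 and F1 controls (unadjusted p = 0.133, adjusted p = 1.00), and the smallest unadjusted p was 0.120, that of Wwp1 1395268_at.

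Other genes of the pathway came from lists of textbook members; their F1 and F2 values come from the contrasts that chose Nedd4 and are given with no p. Of the rest of the Nedd4 family (Smurf1, Smurf2, Hecw1 and Hecw2), 5 probe sets of 3 genes passed the filter. Smurf2, which limits signalling by TGF-beta and bone morphogenetic proteins, fell in F3 at 1398420_at by 0.70 on the log2 scale (SE 0.13, limma adjusted p = 0.0113), with a mean signal of 138.4 on vinclozolin and 234.7 on control arrays. Its other probe set, 1388607_at, gave −0.15 ± 0.13 in F3 (adjusted p = 0.601). That was 1 lower and 0 higher of 5 in F3, with a median of −0.26. In F1 and F2 the counts were 2 lower and 0 higher each (medians −0.44 and −0.18). The called share was 40% in F1, 40% in F2 and 20% in F3, beside 23.1%, 14.3% and 3.11% of all tested probe sets. The lowest values were at Smurf1 1392802_at (−1.06 ± 0.26 in F1, −0.83 ± 0.26 in F2). The others that met the threshold were Hecw2 1397630_at (−0.55 ± 0.19 in F1) and Smurf2 1398420_at (−0.41 ± 0.13 in F2). Smurf1 1392802_at was dim, with mean signals of 7.2 on F1 vinclozolin and 32.5 on F1 control arrays. Smurf1 1388824_at gave −0.44 ± 0.15 in F1 and −0.08 ± 0.15 in F2, and was not called.

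HECT ligases outside the Nedd4 family had 22 tested probe sets of 14 genes. In F3, 0 were called and 2 had an unadjusted p under 0.05, a threshold passed by 18.3% of all tested probe sets in F3 (limma; median −0.07). In F1, 3 were lower and 1 higher (median −0.10), and in F2, 1 was lower and 0 higher (median −0.23). The called share was 18.2% in F1, 4.55% in F2 and 0% in F3, beside 23.1%, 14.3% and 3.11% of all tested probe sets. Ube3a, the ligase of Angelman syndrome, had probe sets in both directions in F1, 1390099_at at −1.33 ± 0.30 and 1391393_at at 0.50 ± 0.13. The lower one, 1390099_at, was dim (mean signal 7.25 on F1 vinclozolin and 41.5 on F1 control arrays). Herc2, a giant ligase of the DNA damage response, gave −0.35 ± 0.11 and Ube3c −0.32 ± 0.11 in F1, and Hace1 −0.33 ± 0.10 in F2.

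Adaptors and regulators had 26 tested probe sets of 15 genes. In F1, 8 were lower and 0 higher (median −0.21), and in F2, 9 were lower and 0 higher (median −0.24). In F3, 0 were called (median −0.05) and 6 of the 26 had an unadjusted p under 0.05 (limma), beside 18.3% of all tested probe sets. The called share was 30.8% in F1, 34.6% in F2 and 0% in F3, beside 23.1%, 14.3% and 3.11% of all tested probe sets. Ndfip2, a membrane protein that recruits and activates the family, stood at −0.83 ± 0.15 in F1 and −0.69 ± 0.15 in F2 at 1389364_at. Grb10, an adaptor that binds Nedd4 and the insulin-like growth factor receptor, stood at −1.41 ± 0.19 in F1 and −0.82 ± 0.19 in F2 at 1394610_at. Its probe set 1397211_at also met the threshold, at −0.34 ± 0.11 in F1 and −0.62 ± 0.11 in F2. The remaining Grb10 probe set, 1371517_at, gave −0.13 ± 0.08 and −0.03 ± 0.08. Cyld, a deubiquitinase that partners Itch, stood at −0.95 ± 0.22 in F1 and −0.73 ± 0.22 in F2 at 1391091_at and at −0.64 ± 0.16 in F1 at 1379287_at. N4bp1, an inhibitor of Itch, stood at −1.04 ± 0.24 in F2 at 1391222_at, which was dim (mean signal 12 on vinclozolin and 39.7 on control arrays). Its other probe sets gave 0.09 ± 0.13 (1376205_at) and −0.55 ± 0.26 (1390859_at) in F2 and were not called.

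E1 and E2 enzymes of ubiquitin transfer had 15 tested probe sets of 7 genes. In F1, 6 were lower and 0 higher (median −0.10), and in F2, 2 were lower and 0 higher (median −0.05). In F3, 0 were called (median 0.03) and 3 of the 15 had an unadjusted p under 0.05 (limma), beside 18.3% of all tested probe sets. The called share was 40% in F1, 13.3% in F2 and 0% in F3, beside 23.1%, 14.3% and 3.11% of all tested probe sets. Uba6, an E1 enzyme, stood at −0.97 ± 0.16 in F1 at 1376157_at, while its other 3 probe sets lay above 0 there (0.25, 0.32 and 0.37). Ube2d1, an E2 that serves HECT ligases, stood at −0.89 ± 0.29 (1385548_at) and −0.53 ± 0.16 (1390259_at) in F1 and at −0.82 ± 0.16 (1390259_at) in F2. Its relative Ube2d2 had no probe set that met the threshold in both generations. In F1 and F2, 1370525_at gave −0.51 ± 0.13 and −0.21 ± 0.13, and 1370523_a_at gave −0.15 ± 0.11 and −0.52 ± 0.11. The remaining one, 1370524_at, gave −0.29 ± 0.09 and −0.19 ± 0.09.

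Reported substrates had 34 tested probe sets of 19 genes. In F3, 4 fell and 2 rose (median −0.15), a called share of 17.6% beside 3.11% of all tested probe sets. Polr2a, the large subunit of RNA polymerase II, fell by 0.85 (SE 0.15, limma adjusted p = 0.00657). Gli1, the Hedgehog effector and an Itch substrate, fell by 0.48 (SE 0.10, adjusted p = 0.0176). Jun, an AP-1 factor and Itch substrate, rose at 1369788_s_at by 0.85 ± 0.18 (adjusted p = 0.0201) and at 1389528_s_at by 0.54 ± 0.13 (adjusted p = 0.0417), and its remaining probe set, 1374404_at, gave 0.22 ± 0.17. In F1, 1389528_s_at had stood at −0.43 ± 0.13. The other 2 that fell, named after their values were seen, were Igf1r 1392492_at (−0.47 ± 0.11) and Fgfr1 1372447_at (−0.45 ± 0.11), both growth factor receptors. Igf1r 1368123_at (−0.28 ± 0.14) and Fgfr1 1387498_a_at (−0.54 ± 0.15) were not called in F3. The calls of Jun 1389528_s_at, Igf1r and Fgfr1 were lost without the filter on dim probe sets, and those of Igf1r and Fgfr1 also under median centring. Of the 7 pathway calls in F3, Smurf2 included, 0 held without either F3 control array or without F3 vinclozolin replicate 2, 3 held without F3 vinclozolin replicate 1, 4 held without any 1 of the F1 or F2 control arrays, and 0 held with the beta-actin covariate.

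The same substrate list had 7 lower and 0 higher in F1 (median −0.16) and 2 lower and 0 higher in F2 (median −0.04). The called share was 20.6% in F1 and 5.88% in F2, beside 23.1% and 14.3% of all tested probe sets. In F1 the lowest were Fgfr1 1387498_a_at (−0.89 ± 0.15), Insr 1392043_at, the insulin receptor (−0.83 ± 0.20), Klf2 1386041_a_at (−0.82 ± 0.19) and Klf5 1368363_at (−0.74 ± 0.17), both Krüppel-like transcription factors. Other probe sets of these genes were not called in F1: those of Klf2 gave −0.31, −0.13 and −0.29, and those of Klf5 −0.53 and −0.02. Fgfr1 1372447_at gave −0.14 and Insr 1369051_at −0.45 in F1. The called Klf2 probe set was dim, with a mean signal of 5.05 on F1 vinclozolin and 21.1 on F1 control arrays. In F2 they were Insr 1392043_at (−0.93 ± 0.20) and Cxcr4 1370097_a_at, a chemokine receptor (−0.49 ± 0.14), whose other probe sets gave −0.05 and −0.03. Over all 5 lists, 102 probe sets were tested, of which 26 were lower and 1 higher in F1, 16 and 0 in F2, and 5 and 2 in F3, beside 13.7% and 9.41%, 9.65% and 4.7%, and 2.06% and 1.05% of all tested probe sets. The beta-actin ratio differed between the same arrays, and its part in the F1 and F2 counts was not tested.

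The genes most like Nedd4 probe set A over the 12 arrays, among 15763 probe sets of other single genes, were Hars1, a tRNA synthetase (Pearson r = 0.994), Ahcyl1, a regulator of calcium release (0.994), Pbrm1, a chromatin remodelling subunit (0.992), Pnn, a splicing-associated protein (0.991), and Ube2n, an E2 that builds K63 chains (0.991). Their differences ran from −1.84 (Pbrm1) to −0.91 (Ube2n) in F1 and from −1.44 (Ahcyl1) to −0.88 (Ube2n) in F2. In F3 they ran from −0.50 (Pbrm1) to −0.33 (Hars1). These genes were picked by likeness to A over all 12 arrays, F3 included, so the choice largely fixed values below 0. The brightest probe set, 1375119_at, was most like Snhg11, a long non-coding RNA (0.889), Sdad1 (0.880), Thoc2, an mRNA export subunit (0.877), Nono, a paraspeckle protein (0.843), and Rbm5, a splicing regulator (0.828). None of the 5 genes was shared between the pair of Nedd4 probe sets, which their own r of −0.172 largely fixed, and the points share lineage.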

How the data were processed

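Total RNA of 12 pools of rat testes was labelled with biotin and hybridised by standard Affymetrix procedures, per the labels' protocols. The authors deposited linear signal intensity per probe set, from 0 to 9534.9. The 2% trimmed mean was near 125.03 on every array, so the deposited values had been globally scaled. No detection calls were used. The summarising software is not given in the sources used here. The number of arrays limits the precision.

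Values were used as log2(value + 16), which understates changes of dim probe sets. The 57 array controls and the lowest 30% of mean log2 values were left out, and 21729 probe sets were tested. All 12 arrays entered 1 fit of 6 group means (R 4.3.3, limma 3.58.1, lmFit and eBayes with trend). Residual degrees of freedom were 6 and prior ones 8.97. Calls are at an adjusted p (Benjamini-Hochberg, over all tested probe sets) under 0.05. With 2 arrays a group, the spread is pooled over groups. Nedd4 probe set A is 1395157_at. Gene names came from the array annotation, using probe sets with 1 symbol. Replicate numbers do not pair the arrays: deviations of same-numbered arrays correlated at −0.0932 to 0.0678 over 15 pairs of groups.

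Genes were named by rule: every member, up to 4 called probe sets per list and generation by size of change, and the 5 probe sets most correlated with probe set A and with the brightest Nedd4 probe set. Igf1r, Fgfr1 1372447_at and other probe sets of named genes fall outside it. The members, lists and tests were chosen with earlier results of these data known. The code was tested on simulated data.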

Additional observations from a re-analysis of the deposited data

How the results depend on the processing

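The F3 fall of Nedd4 probe set A kept its direction under all 22 alternatives and its call under 21, with differences of −1.23 to −0.87, and was lost with the beta-actin ratio as a covariate (adjusted p = 0.144; range over the alternatives 8.06e-05 to 0.144). Of the members, 1 was called in F3. The count was 0 with that covariate and 2 in the 4 F3 arrays alone, where Nedd4 1383899_at was also called (adjusted p = 0.0112). It was 2 without both F1 vinclozolin arrays (chosen after seeing the data) and 2 without either 1 of them, which entered through the pooled spread; leaving out single arrays gave 1 to 2. In F1, 7 members met the threshold, with 0 under the covariate and 4 to 8 when single arrays were left out (4 without F1 control replicate 2). In F2, 4 did, with 2 after median centring, 2 without a variance trend and 0 under the covariate. Leaving out single arrays gave 2 to 5 in F2 (2 without F2 control replicate 1 or 2 or F2 vinclozolin replicate 2). The F2 share of all tested probe sets called was 14.3% in the main fit, 18.8% after median centring and 10.6% without a variance trend. The covariate was estimated from the spread within groups and gave 0 calls over all probe sets in F1 and F2. It turned the F1 difference of Nedd4 1371314_at to 0.13 (SE 0.42), of 1383899_at to 0.10 (SE 0.52), of 1384326_at to 0.068 (SE 1.13) and of 1386263_at to 1.47 (SE 0.69). It turned the F2 difference of 1383899_at to 0.32 (SE 0.39) and of 1386263_at to 1.23 (SE 0.52). The cause of these shifts was not tested. The uncalled differences of 1384326_at in F2 and 1383899_at in F3 also changed sign, to 0.204 (SE 0.85) and 0.088 (SE 0.17). The pathway lists had 7 calls in F3, with 4 without the filter on dim probe sets, 5 under median centring, 3 of the 7 kept without a variance trend, and 0 with the covariate (chosen after seeing the data). The control groups had 0 member calls under all 22 alternatives. With a replicate block the member counts were 7 in F1, 4 in F2, 1 in F3 and 0 among controls. Median centring moved the median of all probe sets to 0.10 in F1 and 0.11 in F2.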
